A study of Canis lupus familiaris with 186 samples.

Results

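Primary appendicular osteosarcomas of 186 dogs were ranked by ACP5 and CTSK, the genes of tartrate-resistant acid phosphatase and cathepsin K. A score was taken for each dog as the mean z-score of log2(CPM + 1) of both genes over all 186 dogs, where CPM is the count scaled to a library total of 1e6. The groups were thus chosen by the measured levels of these 2 genes. The 47 dogs with the highest 25% of scores are called osteoclast-rich here, the 47 with the lowest 25% osteoclast-poor, and the other 92 dogs lie between. The tumors were biopsied before any treatment from pet dogs, which differed in breed, age and sex, enrolled in the trials COTC021 and COTC022, with 93 dogs from each trial. All dogs had a tumor of a limb and no visible metastasis, and were later treated by amputation and carboplatin, without or with rapamycin. A tumor biopsy holds tumor cells, stroma, vessels and leukocytes together. In bulk RNA, fewer cells of a type and less RNA per cell cannot be told apart, so rich and poor refer to transcripts and not to counted cells.

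Osteoclasts are multinucleated cells that form by fusion of precursors of the monocyte lineage and dissolve bone. Osteoblast-lineage cells supply M-CSF and RANK ligand (RANKL), which drive this differentiation through the receptors CSF1R and RANK, whereas osteoprotegerin (OPG) is a soluble decoy receptor that binds RANKL. A mature osteoclast seals a patch of bone, acidifies it with a vacuolar proton pump and a chloride channel, and digests the collagen with cathepsin K and matrix metalloproteinases. Osteosarcoma is a tumor of bone-forming cells in which bone is both made and resorbed.

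ACP5 (chr20:50211593-50213981 of build UU_Cfam_GSD_1.0) and CTSK (chr17:60587454-60594862) chose the groups, so their values are a description with no test. ACP5 ran from 2033 to 18680 CPM (median 4723) in the osteoclast-rich tumors and from 1.52 to 787 CPM (median 127) in the osteoclast-poor tumors. CTSK ran from 2140 to 6867 CPM (median 3501) in the former and from 62.4 to 1271 CPM (median 301) in the latter. The lowest osteoclast-rich dog had a score of 0.682, with 2033 CPM of ACP5 and 3371 CPM of CTSK, and the next dog outside had 0.679, with 4988 and 1932 CPM. At the other end, the highest osteoclast-poor dog had a score of -0.421, with 636 CPM of ACP5 and 690 CPM of CTSK, and the next dog outside had -0.391, with 602 and 760 CPM. No gap in the score separated either group from the dogs between. Across the 186 dogs, the Spearman correlation of the genes was 0.878, a description over libraries that differ in depth and tissue makeup.

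**Figure D1:**
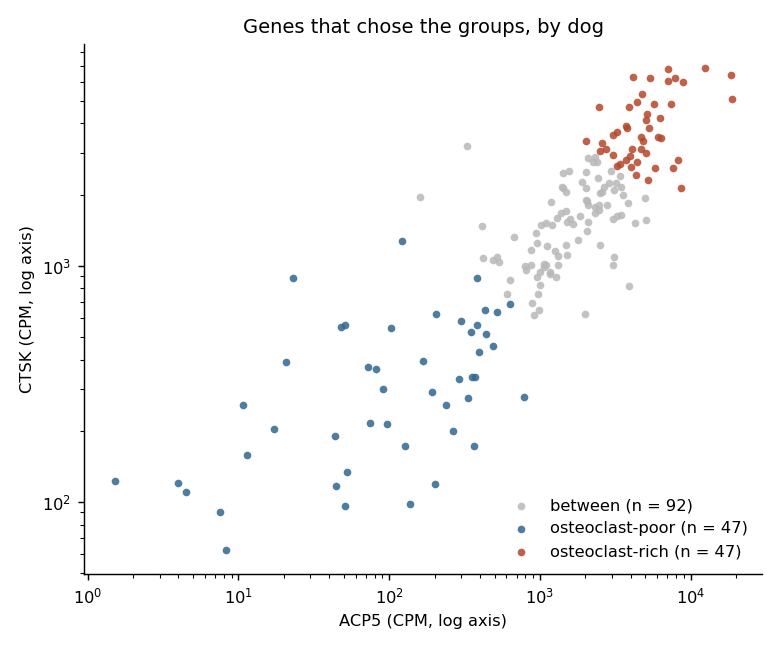
ACP5 (x axis) and CTSK (y axis) in CPM on log axes, 1 point per dog, with the 47 osteoclast-rich, 92 intermediate and 47 osteoclast-poor tumors in different colors. The groups meet at the cuts, and ACP5 runs from 1.52 to 787 CPM in the osteoclast-poor tumors and from 2033 to 18680 CPM in the osteoclast-rich ones.

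Total counts per library ran from 6587634 to 27420867 over all dogs. The mean log2 total differed by 0.03 between the groups (two-sided permutation test, p = 0.728). The osteoclast-rich group held 26 dogs of COTC021 and 21 of COTC022, the osteoclast-poor group 24 and 23 (Fisher's exact test, two-sided, p = 0.836). Of the 50 libraries with "__" in the deposited name, called here double-bar libraries, which were deeper, 11 were osteoclast-rich and 12 osteoclast-poor (Fisher's exact test, two-sided, p = 1). One osteoclast-poor library stood apart. Its 14 genes of T cells and NK cells summed to 5803 CPM, against 727 CPM in the next osteoclast-poor tumor, and it was also highest of the group in macrophage and MHC class II genes. One osteoclast-rich library held 86270 CPM of 8 skeletal muscle genes, against 17966 CPM in the next. Counts and list medians that rest on these libraries are given with and without them, in fits chosen after seeing the data. COL1A1, the type I collagen of bone-forming cells, had 1634 to 63906 CPM (median 18987) in osteoclast-rich tumors and 328 to 112270 CPM (median 21096) in osteoclast-poor tumors, so it was present in each library of both groups.

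All other genes were compared between the groups with limma-voom, with the trial as a covariate, and a gene was called at a Benjamini-Hochberg adjusted p under 0.05 over the 13420 genes tested. Since the libraries were sorted by 2 of their own genes, a call says that a gene varies together with ACP5 and CTSK over these tumors. Higher in osteoclast-rich tumors were 1992 genes (14.8% of those tested), and lower were 1212 (9.03%). A fold change above 3, the size used by the study, was reached by 252 higher genes (1.88%) and by 44 lower genes (0.328%). In 28 genes (0.209%) all osteoclast-rich tumors lay above the highest osteoclast-poor tumor, and in 0 genes (0%) below the lowest. The balance of directions depended on the method and on the scaling. The edgeR quasi-likelihood fit called 1550 genes higher and 2125 lower, DESeq2 1399 and 2742, and limma-voom with RLE size factors 1792 and 1538. Without the muscle-rich library, limma-voom called 1749 genes higher and 1584 lower, and without the T cell-rich library 2058 and 1355. The median log2 fold change of all genes lay between -0.099 and -0.0027 in these fits.

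Most of the measured resorption machinery was higher in osteoclast-rich tumors. Of 15 measured genes of this list beside ACP5 and CTSK, 12 were called higher (80%, beside 14.8% of all genes tested) and 0 lower. The median log2 fold change over the list was 2.51, against a median of -0.0027 for all genes tested. MMP9 (chr24:33897331-33904192), the gelatinase that osteoclasts secrete, had 1394 to 18966 CPM (median 4127) in osteoclast-rich tumors and 1.22 to 994 CPM (median 59.6) in osteoclast-poor tumors. All 47 osteoclast-rich tumors were above every osteoclast-poor tumor. Its log2 fold change was 6.23 in limma-voom (SE 0.42, adjusted p = 4.17e-24), but 4.93 in edgeR and 4.90 in DESeq2. SLC9B2, a sodium/proton antiporter used as an osteoclast marker, had 138 to 823 CPM (median 409.5) in osteoclast-rich tumors and 0.569 to 91.4 CPM (median 18.9) in osteoclast-poor tumors. Again the groups did not overlap. Its log2 fold change was 4.54 (SE 0.25, adjusted p = 5.94e-30). RAB38, a small GTPase of lysosome-related organelles, had 51.3 to 171 CPM (median 84.1) in osteoclast-rich tumors and 2.29 to 44.7 CPM (median 15.7) in osteoclast-poor tumors, and these ranges did not overlap either.

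Genes whose loss causes osteopetrosis, the disease of failed resorption, were among those called. TCIRG1, the osteoclast subunit of the proton pump, had 189 to 612 CPM (median 289) in osteoclast-rich tumors and 13.5 to 112 CPM (median 44.6) in osteoclast-poor tumors. The groups did not overlap. Its log2 fold change was 2.84 (SE 0.11, adjusted p = 4.30e-41). CLCN7, the chloride/proton antiporter of the ruffled border, had a log2 fold change of 1.70 (SE 0.08, adjusted p = 1.13e-35), and again all 47 osteoclast-rich tumors lay above the highest osteoclast-poor tumor. OSTM1, its beta subunit, had a log2 fold change of 1.08 (SE 0.10, adjusted p = 1.58e-15), and 25 of the 47 osteoclast-rich tumors exceeded the highest osteoclast-poor one. SNX10, a sorting nexin needed for the ruffled border, had a log2 fold change of 3.14 (SE 0.18, adjusted p = 2.94e-29). PLEKHM1, an adaptor for the fusion of late endosomes and lysosomes, had 2.51 (SE 0.12, adjusted p = 2.88e-33). CA2, the cytosolic carbonic anhydrase that makes protons, had 2.33 (SE 0.18, adjusted p = 2.91e-20), and here the groups overlapped, with 4 osteoclast-rich tumors above the highest osteoclast-poor one. SLC4A2, the anion exchanger that removes bicarbonate, had 2.59 (SE 0.11, adjusted p = 5.06e-39) with no overlap. In the rest of the resorption list, not chosen for osteopetrosis, RAB7A, a GTPase of late endosomes, was higher by 0.33 (adjusted p = 0.000317). The 3 genes of the whole resorption list that were not called were MMP14, CLIC4 and SYT7. MMP14, a membrane metalloproteinase also made by tumor cells, had 0.11. CLIC4, a chloride intracellular channel, had -0.22, and SYT7, a synaptotagmin of lysosome exocytosis, -0.05.

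The vacuolar proton pump is assembled from a membrane sector, V0, and a cytosolic sector, V1. TCIRG1 and ATP6V0D2 stand in the resorption list too. Of the 22 listed subunits and accessory proteins, 19 passed the low-count filter. Of these, 16 were called higher (84.2%, beside 14.8% of all genes tested) and 0 lower. A fold change above 3 was reached by 8, beside 1.88% of all genes tested. The median log2 fold change of the 19 was 1.28. ATP6V0D2 (chr29:32980580-33022805), the V0 d subunit enriched in osteoclasts, had 124 to 477 CPM (median 226) in osteoclast-rich tumors and 0.097 to 41.5 CPM (median 5.84) in osteoclast-poor tumors. The lowest osteoclast-rich tumor was above the highest osteoclast-poor one. Its log2 fold change was 5.74 (SE 0.30, adjusted p = 3.38e-31). Its paralog ATP6V0D1, which is expressed in most tissues, was higher by only 0.37 (adjusted p = 0.000141). The V1 subunits ATP6V1A and ATP6V1B2, which form the ATP-hydrolyzing head, had log2 fold changes of 2.40 and 2.41. The proteolipid subunit ATP6V0C of the V0 ring had 1.87. Among the a subunits, which place the pump in a membrane, TCIRG1 was called, whereas ATP6V0A1 had -0.02 (adjusted p = 0.916) and ATP6V0A2 -0.07 (adjusted p = 0.619). The levels of ATP6V0A1 lay between 23.4 and 147 CPM in osteoclast-rich tumors and between 10.3 and 130 CPM in osteoclast-poor tumors, so the groups overlapped. The third uncalled subunit was ATP6V0E2, with 0.26. ATP6V1B1, ATP6V1C2 and ATP6V1G2 did not pass the low-count filter, and ATP6V1B1 had no more than 9 counts in any osteoclast-rich library.

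Of 17 adhesion and podosome genes, 11 were called higher (64.7%, beside 14.8% of all genes tested) and 0 lower, with a list median of 0.91. EdgeR called 9 higher and 1 lower, with a median of 0.46, and DESeq2 7 and 1, with 0.43. Without the T cell-rich library, edgeR called 10 and 1, with a median of 0.73. ITGB3, the beta chain of the vitronectin receptor by which osteoclasts bind bone, had 77.9 to 475 CPM (median 171) in osteoclast-rich tumors and 4.05 to 81.1 CPM (median 32.2) in osteoclast-poor tumors. In 46 of 47 osteoclast-rich tumors it was above the highest osteoclast-poor tumor, and its log2 fold change was 2.58 (SE 0.15, adjusted p = 9.53e-29). Its partner ITGAV, which many cells express, was higher by 0.91 (adjusted p = 1.32e-08). SPP1, the bone matrix protein osteopontin, had 768 to 12565 CPM (median 2689.9) in osteoclast-rich tumors and 34.3 to 3205 CPM (median 278) in osteoclast-poor tumors, ranges that overlapped, with a log2 fold change of 3.16 (SE 0.25, adjusted p = 7.57e-20). DOCK5, an exchange factor for Rac, had 2.84 (SE 0.16, adjusted p = 8.61e-30). FERMT3, the kindlin of blood cells, had 1.97 (SE 0.17, adjusted p = 1.79e-17). SRC, the kinase required for the ruffled border, had 1.02 (SE 0.09, adjusted p = 8.24e-18). WAS, of the actin of podosomes, had 1.01 in limma-voom (adjusted p = 3.53e-05) and 0.42 in edgeR (adjusted p = 0.205), where it was not called. CD44, VCL, CTTN, GSN, SH3PXD2A and MYO10 were not called and had values from -0.24 to 0.35.

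**Figure D2:**
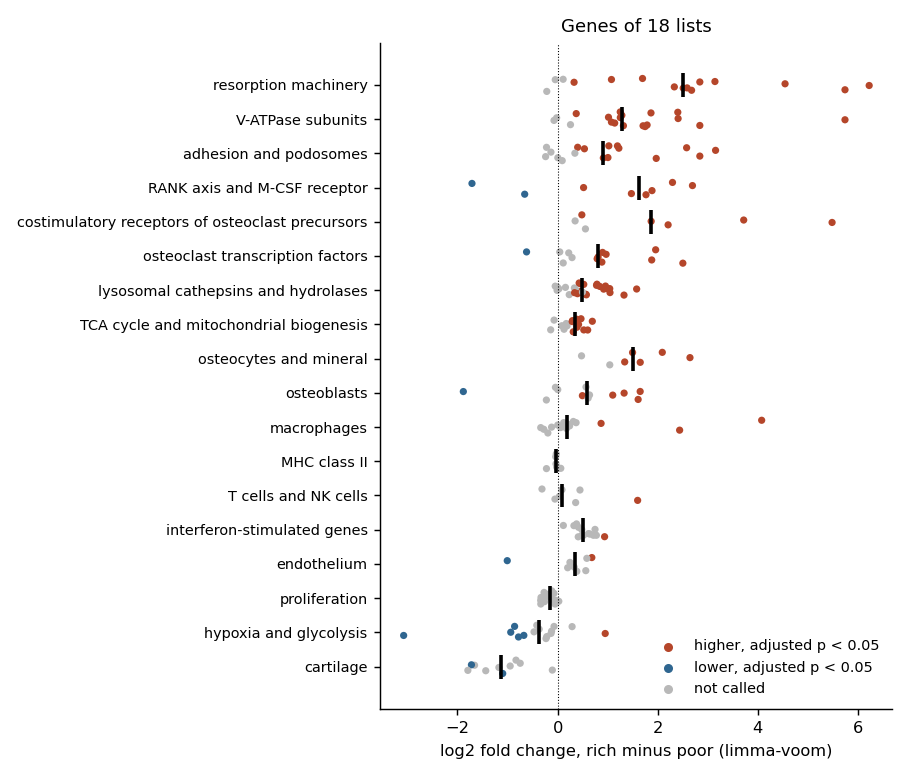
Log2 fold change of osteoclast-rich against osteoclast-poor tumors (x axis, limma-voom) for each tested gene of 18 lists, 1 point per gene, colored by whether the gene was called higher, called lower or not called, with the median of each list as a vertical line. The medians of the upper lists lie to the right, at 2.51 for resorption machinery, and that of the cartilage list at -1.13.

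Each of the 8 ligands, receptors and signaling genes of osteoclast formation was called, 6 higher and 2 lower, with a list median of 1.62. These are shares of 75% and 25%, beside 14.8% higher and 9.03% lower of all genes tested. COTC022 alone gave 6 higher and 0 lower, the double-bar libraries alone 3 and 0, and groups by ACP5 alone 6 and 1. TNFRSF11A, the gene of RANK, had 5.76 to 36.1 CPM (median 16.8) in osteoclast-rich tumors and 0.388 to 5.95 CPM (median 2.57) in osteoclast-poor tumors. 46 of 47 osteoclast-rich tumors were above the highest osteoclast-poor one, and its log2 fold change was 2.69 (SE 0.17, adjusted p = 9.45e-26). TNFSF11 (chr22:8205225-8236245), the gene of RANKL, had 18.7 to 198 CPM (median 54.5) in osteoclast-rich tumors and 0.739 to 124 CPM (median 19.6) in osteoclast-poor tumors. The groups overlapped, but 46 of 47 osteoclast-rich tumors exceeded the median of the osteoclast-poor group, and its log2 fold change was 1.89 (SE 0.27, adjusted p = 1.66e-08). TNFRSF11B (chr13:18533442-18560917), the gene of OPG, ran the other way with 0 to 26.2 CPM (median 6.39) in osteoclast-rich tumors and 0.19 to 349 CPM (median 17.3) in osteoclast-poor tumors. It fell by 1.71 on the log2 scale (SE 0.46, adjusted p = 0.00286), and all values above 26.2 CPM, the highest of the osteoclast-rich group, were in osteoclast-poor tumors among these 94 dogs.

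The difference of log2(CPM + 1) between TNFSF11 and TNFRSF11B in the same dog had a median of 2.95 in osteoclast-rich tumors (0.64 to 6.19), 2.19 in the 92 dogs between (-1.56 to 6.55) and -0.07 in osteoclast-poor tumors (-3.77 to 3.17). CPM are not scaled to gene length, so only its differences between dogs can be read. CSF1, the gene of M-CSF, had 68.4 to 409 CPM (median 137) in osteoclast-rich tumors and 8.58 to 131 CPM (median 43.4) in osteoclast-poor tumors and a log2 fold change of 1.77 (SE 0.15, adjusted p = 8.23e-18). CSF1R, its receptor, had 201 to 692 CPM (median 438) in osteoclast-rich tumors and 14.7 to 545 CPM (median 82.5) in osteoclast-poor tumors and 2.30 (SE 0.17, adjusted p = 5.22e-21). IL34, the second ligand of CSF1R, had 1.47 (adjusted p = 2.15e-08). TRAF6, the adaptor below RANK, was higher by 0.52 (adjusted p = 2.29e-05). LGR4, a receptor that also binds RANKL, was called lower, with -0.66 (adjusted p = 0.00627).

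**Figure D3:**
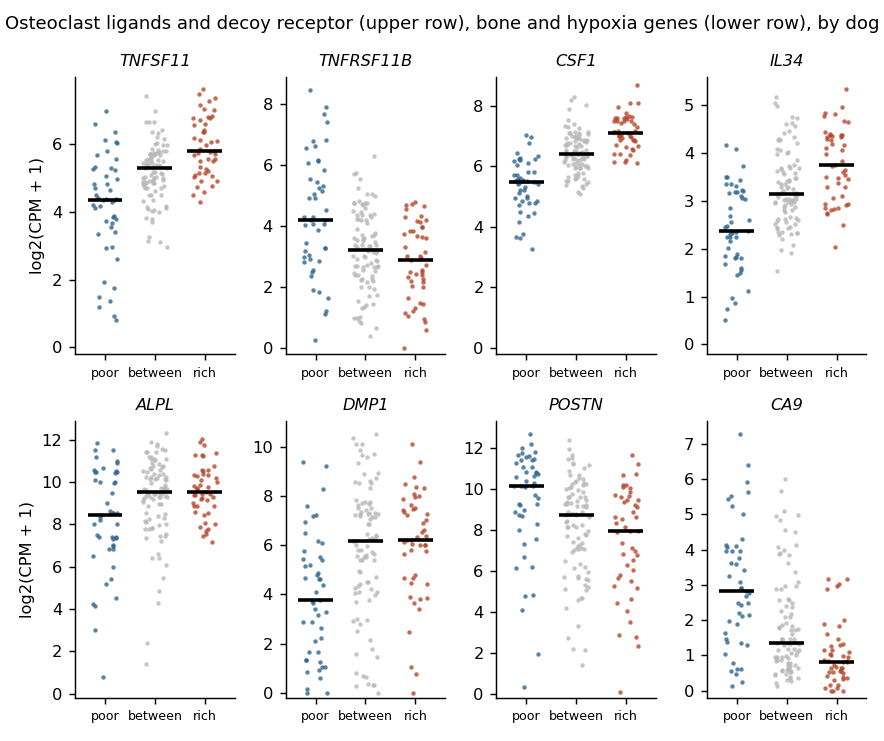
Log2(CPM + 1) (y axis) by dog in osteoclast-poor, intermediate and osteoclast-rich tumors (x axis), with the group median as a bar, for TNFSF11, TNFRSF11B, CSF1 and IL34 in the upper row and ALPL, DMP1, POSTN and CA9 in the lower row. TNFSF11 and CSF1 have higher medians in osteoclast-rich tumors, and TNFRSF11B, POSTN and CA9 lower ones, with ranges that overlap.

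Of the 7 costimulatory receptors and signaling proteins that precursors use beside RANK, 5 were called higher (71.4%, beside 14.8% of all genes tested) and 0 lower. SIGLEC15, a sialic acid receptor of osteoclasts, had 15 to 58.2 CPM (median 29.4) in osteoclast-rich tumors and 0 to 5.74 CPM (median 0.66) in osteoclast-poor tumors. No tumor of either group fell in the range of the other. Its log2 fold change was 5.48 (SE 0.30, adjusted p = 1.17e-30). OSCAR, the collagen receptor of osteoclasts, had 1.3 to 29.8 CPM (median 8.5) in osteoclast-rich tumors and 0 to 4.54 CPM (median 0.866) in osteoclast-poor tumors and a log2 fold change of 3.72 (SE 0.31, adjusted p = 1.34e-18). Of the adaptors through which such receptors signal, TYROBP (DAP12) had 1.87 (adjusted p = 9.68e-18) and FCER1G 0.48 (adjusted p = 0.0487), and FCER1G was not called by edgeR (adjusted p = 0.448) or by limma-voom without the muscle-rich library (adjusted p = 0.0712). The kinase SYK, which both adaptors recruit, had 2.21 (SE 0.16, adjusted p = 2.92e-22). TREM2, a macrophage receptor that pairs with TYROBP, had 0.56 (adjusted p = 0.203) and was not called.

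Among 13 transcription factors of the lineage, 8 were called higher (61.5%, beside 14.8% of all genes tested) and 1 lower (7.69%, beside 9.03%). Their median log2 fold change was 0.81. SPI1, the gene of PU.1, had 48.3 to 154 CPM (median 86.3) in osteoclast-rich tumors and 2.22 to 106 CPM (median 13.2) in osteoclast-poor tumors and a log2 fold change of 2.50 (SE 0.15, adjusted p = 6.68e-28). NFATC1, the master regulator induced by RANKL, had 55.9 to 178 CPM (median 89.9) in osteoclast-rich tumors and 11.7 to 83.8 CPM (median 49.7) in osteoclast-poor tumors. 30 of 47 osteoclast-rich tumors were above the highest osteoclast-poor one, and its log2 fold change was 0.97 (SE 0.10, adjusted p = 3.52e-13). JDP2 had 1.96 and PRDM1, the repressor Blimp-1, 1.88. MITF had 0.81 (adjusted p = 7.35e-06), whereas its relatives TFEB and TFE3 had 0.29 and 0.11 and were not called. MYC was called lower, with -0.62 (adjusted p = 0.00465). Of 3 repressors of osteoclast formation, 1 was called higher (33.3%, beside 14.8% of all genes tested) and 0 lower. The list median was 0.17 in limma-voom and -0.08 in edgeR. IRF8 (0.17) and BCL6 (-0.09) were not called.

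Cell fusion was covered by 7 genes, of which 6 passed the filter and 2 were called higher (33.3%, beside 14.8% of all genes tested). OCSTAMP (chr24:34417948-34424217) had 15.5 to 121 CPM (median 51.3) in osteoclast-rich tumors and 0 to 12 CPM (median 0.945) in osteoclast-poor tumors, with no counts in some osteoclast-poor libraries, and a log2 fold change of 6.05 (SE 0.38, adjusted p = 2.16e-26). DCSTAMP had 15.2 to 84.9 CPM (median 42.1) in osteoclast-rich tumors and 0 to 24.2 CPM (median 1.31) in osteoclast-poor tumors and 4.93 (SE 0.29, adjusted p = 2.88e-28). Both proteins span the membrane of fusing precursors. The tetraspanins CD9 and CD81, which many cells express, had -0.04 and 0.02. CALCR, the calcitonin receptor of mature osteoclasts, did not pass the filter and was not tested. It reached 10 counts in 31 osteoclast-rich and 8 osteoclast-poor libraries, with medians of 20 and 1 counts.

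**Figure D4:**
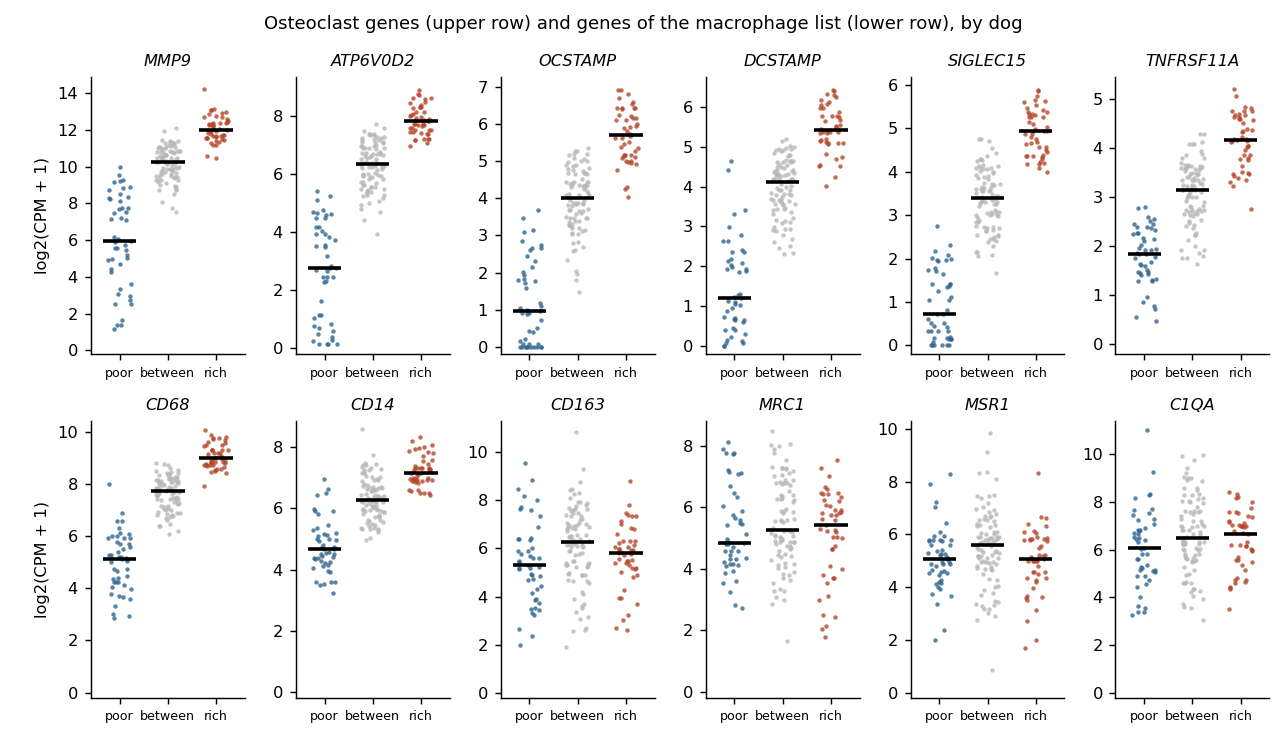
Log2(CPM + 1) (y axis) by dog in osteoclast-poor, intermediate and osteoclast-rich tumors (x axis), with the group median as a bar, for 6 osteoclast genes (upper row) and 6 genes of the macrophage list (lower row). All 47 osteoclast-rich tumors lie above the osteoclast-poor ones for MMP9, ATP6V0D2, OCSTAMP and SIGLEC15, whereas the ranges of CD163, MRC1, MSR1 and C1QA overlap.

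Osteoclasts also release factors that act on bone-forming cells. Of 11 such genes, 3 were called higher (27.3%, beside 14.8% of all genes tested) and 0 lower. The median log2 fold change was 0.13 in limma-voom and 0.01 in edgeR. SEMA4D, a semaphorin that restrains osteoblasts, had 48.4 to 169 CPM (median 84.9) in osteoclast-rich tumors and 3.13 to 208 CPM (median 14.3) in osteoclast-poor tumors and a log2 fold change of 2.46 (SE 0.16, adjusted p = 6.48e-26). Its highest value was in an osteoclast-poor tumor. LIF, a cytokine of the IL-6 family, was low in all tumors with 0.857 to 9.26 CPM (median 2.83) in osteoclast-rich tumors and 0 to 9.51 CPM (median 0.467) in osteoclast-poor tumors, and had 2.67 (SE 0.26, adjusted p = 4.59e-15). PDGFB had 1.15 (adjusted p = 4.25e-08). The other 8, SPHK1 and CTHRC1 among them, were not called, with values from -0.46 to 0.51. Of 13 cytokines that stimulate resorption, 7 passed the filter and LIF, which stands in both lists, and TGFB1 (0.65, adjusted p = 0.00195) were called higher. This is a share of 28.6% of the tested cytokines, beside 14.8% of all genes tested. IL11, PTHLH, PTGS2, CCL2 and CXCL8 were not called. IL6 reached 10 counts in 20 osteoclast-rich and 21 osteoclast-poor libraries, and TNF in 0 and 1. Of 5 measured inhibitors of proteases, CSTB, a cystatin of cathepsins, had 1.70 (SE 0.13, adjusted p = 2.52e-20), and TIMP1 had 0.91 (adjusted p = 0.000156). TIMP2 and TIMP3 were not called.

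Lysosomal enzymes are made by most cells. Of 28 tested hydrolases and lysosomal proteins, 18 were called higher (64.3%, beside 14.8% of all genes tested) and 0 lower by limma-voom, and 15 and 1 by edgeR. The list median was 0.48 in limma-voom, with no fold change above 3. NAGLU, an enzyme of heparan sulfate degradation, had the highest value with 1.58 (SE 0.13, adjusted p = 5.90e-19). CTSD, an aspartic protease, had 1.33 (adjusted p = 3.76e-11). PSAP, the precursor of saposins, had 1.04 (adjusted p = 9.30e-12). CTSB had 0.46 (adjusted p = 0.0181) but was not called by edgeR (adjusted p = 0.502), and CTSS, the cathepsin of antigen-presenting cells, had -0.00186 (adjusted p = 0.997).

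Osteoclasts are rich in mitochondria. Of 18 tested genes of the TCA cycle, the respiratory chain and mitochondrial biogenesis, 12 were called higher and 0 lower. Of all genes tested, 14.8% were called higher and 9.03% lower. The list median of the log2 fold change was 0.34. DESeq2 called 8 higher and 1 lower, COTC021 alone 4 higher, COTC022 alone 7 and the double-bar libraries alone 0. EdgeR called 10 higher and 0 lower, with a median of 0.29. Without the muscle-rich library, limma-voom called 10 higher and 1 lower, with a median of 0.29, and edgeR 8 and 1, with 0.20. Without the T cell-rich library, limma-voom called 11 higher and 0 lower, with a median of 0.34. In the dogs between the groups, 1 of the 18 was called rising. The highest log2 fold change of the list in limma-voom was that of MDH2, malate dehydrogenase, with 0.69 (SE 0.11, adjusted p = 9.42e-08). UQCRC1, of complex III, had 0.60. CS, SDHB and FH were not called. PPARGC1B of the transcription factor list, the coactivator PGC-1beta tied to osteoclast mitochondria, had 0.90 (adjusted p = 1.70e-08). PPARGC1A did not pass the filter. It reached 10 counts in 46 of 47 osteoclast-rich and 6 of 47 osteoclast-poor libraries, with medians of 20 and 2 counts.

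Of 16 macrophage genes, 3 were called higher (18.8%, beside 14.8% of all genes tested) and 0 lower. The list median of 0.18 in limma-voom was -0.22 in edgeR and -0.24 in DESeq2. Without the T cell-rich osteoclast-poor library, whose macrophage sum of 9329 CPM stood far above the next of 2768 CPM, it was 0.28 in limma-voom and 0.07 in edgeR. It was -0.32 with groups by ACP5 alone and 0.43 by CTSK alone. CD68, a lysosomal membrane protein of macrophages and osteoclasts, had 243 to 1069.9 CPM (median 509) in osteoclast-rich tumors and 6.33 to 255 CPM (median 34.2) in osteoclast-poor tumors. 46 of 47 osteoclast-rich tumors exceeded the highest osteoclast-poor one, and its log2 fold change was 4.08 (SE 0.18, adjusted p = 5.21e-37). CD14, a coreceptor for lipopolysaccharide on monocytes, had 86.6 to 323 CPM (median 142) in osteoclast-rich tumors and 8.47 to 123 CPM (median 24.6) in osteoclast-poor tumors and 2.44 (SE 0.15, adjusted p = 2.82e-26). ITGAM had 0.87 (adjusted p = 0.0174) and was not called by edgeR (adjusted p = 0.26). CD163, the hemoglobin scavenger receptor, had 5.09 to 439.6 CPM (median 55) in osteoclast-rich tumors and 2.96 to 735 CPM (median 38.2) in osteoclast-poor tumors, which largely overlapped, with 0.18 (adjusted p = 0.742). MRC1, the mannose receptor, had -0.28 (adjusted p = 0.559), MSR1, the scavenger receptor CD204, -0.19 (adjusted p = 0.633) and C1QA, of complement, 0.24 (adjusted p = 0.604). The 16 genes summed to between 602 and 3157 CPM (median 1413) in osteoclast-rich tumors and between 110 and 9329 CPM (median 535) in osteoclast-poor tumors, a sum in which CD68 is included, and no gene of the list was at 0 in all libraries of a group.

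With the mean z-score of these 16 genes, CD68 included, added to the model, the resorption list had a median of 2.40 against 2.51, and 12 of its genes were called higher. Of the 16 macrophage genes themselves, which make up this macrophage score, 2 were called higher and 11 lower. Over all genes tested, this fit called 1887 higher and 1313 lower. CCR1, a chemokine receptor of monocytes and osteoclasts and 1 of the 27 GS-1 genes of the study, had 65.2 to 343 CPM (median 148) in osteoclast-rich tumors and 0.711 to 162 CPM (median 14.2) in osteoclast-poor tumors and 3.44 (SE 0.19, adjusted p = 2.24e-30). The GS-1 genes as a whole, which the study used to cluster dogs, had 4 called higher and 0 lower of 27, which at 14.8% is the share of all genes tested. Their median was 0.19 in limma-voom and -0.39 in edgeR. Without the T cell-rich library, limma-voom called 6 higher, with a median of 0.30, and the edgeR median was 0.14. With groups by CTSK alone 12 were called higher, and by ACP5 alone 2 higher and 2 lower. With the macrophage score in the limma-voom model, 2 were called higher and 15 lower. With the mean z-score of 12 osteoblast genes instead, an alternative chosen after seeing the data, 13 were called higher and 0 lower. The study took this signature from earlier work on canine osteosarcoma and applied it to these dogs. Among the other called ones were TLR7 (1.03) and GIMAP6 (0.70), and GIMAP6 was not called by edgeR.

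Leukocyte lists other than macrophages gave few calls in limma-voom with the trial as covariate, but several held few tested genes. Only 1 of 9 B cell genes and 1 of 4 measured mast cell genes passed the filter. Of all genes tested, 14.8% were called higher and 9.03% lower, and of the T cell and NK cell list 14.3% were called higher. None of 7 MHC class II genes was called in either direction by limma-voom or edgeR, with log2 fold changes from -0.22 to 0.06 in limma-voom. With the macrophage score added to the limma-voom model, all 7 were called lower, with a median of -0.71. Of 14 T cell and NK cell genes, 7 passed the filter, with a list median of 0.09 in limma-voom and -1.38 in edgeR, and only CD8B was called, with 1.60 (adjusted p = 2.03e-05). The edgeR fit instead called 5 of the 7 lower, GZMK among them with -3.16, whereas limma-voom gave 0.04. Without the T cell-rich osteoclast-poor library, edgeR called 0 of the 7 lower and 1 higher, an alternative chosen after seeing the data. GZMK reached 2271 CPM in the osteoclast-poor group, against a group median of 1.42 CPM. Of the neutrophil, mast cell, B cell and adipocyte lists, 9 genes passed the filter and 0 were called by limma-voom or edgeR. None of 8 skeletal muscle genes was called by limma-voom, and edgeR called 5 higher, CKM among them with 3.42, where the highest osteoclast-rich tumor had 20347 CPM against a group median of 13.3 CPM. Without the muscle-rich library, also chosen after seeing the data, edgeR called 1 of the 8 higher and 0 lower.

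Of 12 osteoblast genes, 5 were called higher (41.7%, beside 14.8% of all genes tested) and 1 lower (8.33%, beside 9.03%), with a list median of 0.59. The median was 0.11 in edgeR, 0.08 in DESeq2 and 0.19 with groups by CTSK alone, where 0 were called higher and 1 lower. COTC021 alone gave 0 calls, and COTC022 alone 1 higher. ALPL, alkaline phosphatase, had 144 to 4157 CPM (median 743) in osteoclast-rich tumors and 0.696 to 3745 CPM (median 349) in osteoclast-poor tumors and 1.33 (SE 0.41, adjusted p = 0.0118). BGLAP, osteocalcin, had 1.61 (SE 0.48, adjusted p = 0.00775), IBSP, bone sialoprotein, 1.65 (adjusted p = 0.0469) and RUNX2, the master factor of osteoblasts, 0.50 (adjusted p = 0.0102). IBSP was not called without the T cell-rich library (limma adjusted p = 0.0625) or without the muscle-rich one (0.0527). In edgeR only BGLAP and RUNX2 were called higher, and ALPL had 0.44 (adjusted p = 0.344). The type I collagen genes COL1A1 and COL1A2 had -0.22 and -0.04 and were not called, and neither was SPARC, with 0.00353. POSTN, the matrix protein periostin, was lower, with 0.0516 to 3253 CPM (median 248) in osteoclast-rich tumors and 0.269 to 6532 CPM (median 1112) in osteoclast-poor tumors and -1.88 (SE 0.60, adjusted p = 0.0143).

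Genes of osteocytes and mineral handling were called higher in 5 of 7 tested cases, in limma-voom and in edgeR, with a list median of 1.50. In limma-voom this is a share of 71.4%, beside 14.8% of all genes tested. DMP1, a matrix protein of osteocytes, had 0 to 1121 CPM (median 73.2) in osteoclast-rich tumors and 0 to 659.7 CPM (median 12.8) in osteoclast-poor tumors, with tumors without a count in both groups, and 2.65 (SE 0.64, adjusted p = 0.000929). PDPN, podoplanin of early osteocytes, had 51.1 to 335 CPM (median 123) in osteoclast-rich tumors and 0.808 to 243 CPM (median 27.2) in osteoclast-poor tumors and 2.09 (SE 0.24, adjusted p = 9.35e-12). ANKH, a transporter that sets extracellular pyrophosphate, had 1.65 (SE 0.21, adjusted p = 4.99e-10), ENPP1, which makes pyrophosphate, 1.34 (SE 0.22, adjusted p = 6.48e-07), and PHEX, an endopeptidase of phosphate handling, 1.50 (adjusted p = 0.0049). SOST and PHOSPHO1 were not called. FGF23, the phosphate hormone, did not pass the filter. It reached 10 counts in 19 osteoclast-rich and 37 osteoclast-poor libraries. With an osteoblast score of the 12 genes in the model, an alternative chosen after seeing the data, 5 of 7 osteocyte genes and 12 of 15 resorption genes were called higher.

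Cartilage genes had log2 fold changes below 0 throughout, although few passed the test in limma-voom. Of 10 tested, 2 were called lower (20%, beside 9.03% of all genes tested) and 0 higher, with a list median of -1.13. EdgeR called 8 lower, with a median of -1.78. Limma-voom called 4 lower without the T cell-rich osteoclast-poor library, and 7 with groups by CTSK alone. COMP, cartilage oligomeric matrix protein, had 0.734 to 556 CPM (median 16) in osteoclast-rich tumors and 2.51 to 1199 CPM (median 56.1) in osteoclast-poor tumors and -1.72 (SE 0.53, adjusted p = 0.0117). SOX9, the master factor of cartilage, had -1.10 (SE 0.37, adjusted p = 0.0209). COL2A1, the main collagen of cartilage, had 0 to 1884 CPM (median 5.01) in osteoclast-rich tumors and 0 to 13921 CPM (median 32.6) in osteoclast-poor tumors and -1.66 (adjusted p = 0.2) in limma-voom but -2.95 in edgeR (adjusted p = 0.0023). The 12 listed genes summed to at most 3408 CPM in an osteoclast-rich tumor and to as much as 27624 CPM in 1 osteoclast-poor tumor, the next having 13312 CPM.

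Hypoxia and glycolysis genes were called lower in 5 of 15 cases (33.3%) and higher in 1 (6.67%), with a median of -0.37. Without the T cell-rich or without the muscle-rich library, 7 were lower and 1 higher. Of all genes tested, 9.03% were called lower and 14.8% higher, which also holds for the lists that follow. CA9, a carbonic anhydrase induced by hypoxia, had 0 to 8.06 CPM (median 0.774) in osteoclast-rich tumors and 0.0957 to 154 CPM (median 6.12) in osteoclast-poor tumors. Among these 94 dogs, all values above 8.06 CPM were in osteoclast-poor tumors, and its log2 fold change was -3.08 (SE 0.55, adjusted p = 4.33e-06). BNIP3, a mitophagy receptor, had -0.78, ADM, adrenomedullin, -0.94, EGLN3, an oxygen sensor, -0.86 and HK2, hexokinase, -0.67, while NDRG1 was higher by 0.95 (adjusted p = 3.78e-06). VEGFA and LDHA, with -0.22 and -0.23, were not called by limma-voom and were called lower by edgeR, which called 10 of the 15 lower. None of 15 proliferation genes was called in either direction by limma-voom, MKI67 with -0.09 (adjusted p = 0.798), and edgeR called 3 lower. Of 8 endothelial genes, 1 was called lower and 1 higher (12.5% each), near the shares of all genes tested. VWF was lower, with -1.01 (adjusted p = 0.00584). TEK was higher by 0.68 (adjusted p = 0.0484), but was not called by edgeR or by limma-voom without the muscle-rich library (adjusted p = 0.0678). Of 14 interferon-stimulated genes, only IFIT2 was called higher (0.94, adjusted p = 0.0372), a share of 7.14% and below that of all genes tested. The list median was 0.50, and edgeR called OAS1 and OAS2 instead. Of 6 listed erythroid genes, 0 passed the filter.

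Over all genes, list members included, the genes were ranked by size of change among called genes with a symbol, a mean of at least 5 CPM and the same direction in both trials and both kinds of library. The 10 largest increases were MMP9, OCSTAMP, ATP6V0D2, MMP1, NYAP2, SIGLEC15, SERPINB12, DCSTAMP, DDX4 and MYH15, from 4.80 to 6.23 on the log2 scale in limma-voom. EdgeR gave each of them a smaller value, from 3.89 for DCSTAMP to 4.93 for MMP9. MMP1, the interstitial collagenase, had 53.5 to 976 CPM (median 253) in osteoclast-rich tumors and 0.13 to 61.4 CPM (median 4.85) in osteoclast-poor tumors and 5.60 (SE 0.38, adjusted p = 2.45e-24). NYAP2, a phosphoprotein known from neurons, had 12.3 to 102 CPM (median 36.2) in osteoclast-rich tumors and 0 to 9.22 CPM (median 0.72) in osteoclast-poor tumors. The ranges did not overlap. DDX4, an RNA helicase known from germ cells, had 3.32 to 23.1 CPM (median 9.86) in osteoclast-rich tumors and 0 to 3.22 CPM (median 0.314) in osteoclast-poor tumors. Its ranges were apart as well, but only by 3.32 against 3.22 CPM. The mean of DDX4 over all dogs was 5.31 CPM, just above the limit of 5 CPM, and 0.692 CPM in osteoclast-poor tumors. OCSTAMP, NYAP2, SIGLEC15, SERPINB12, DCSTAMP and MYH15 also had osteoclast-poor means under that limit, from 0.914 to 3.04 CPM. The size of their fold changes, and of that of DDX4, thus rests on osteoclast-poor values near the floor. SERPINB12, a serine protease inhibitor, had 1.67 to 74.4 CPM (median 15.5) in osteoclast-rich tumors and 0 to 6.81 CPM (median 0.356) in osteoclast-poor tumors. Its log2 fold change was 5.13 (SE 0.43, adjusted p = 2.60e-18). MYH15, a myosin heavy chain, had 3.82 to 56.3 CPM (median 23.4) and 0 to 6.51 CPM (median 0.795), and 4.80 (SE 0.37, adjusted p = 6.23e-21). No counts were found in 8 osteoclast-poor libraries for SERPINB12 and in 7 for MYH15.

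The 10 largest decreases were C1QTNF3, CA9, EPHB2, MFAP4, MFAP5, CHRDL1, CCN3, THBS3, MEGF6 and ANGPTL2, from -3.75 to -2.15. In osteoclast-rich tumors, CA9 and EPHB2 had means of 1.52 and 3.82 CPM, under the limit of 5 CPM that held over all dogs. C1QTNF3, a secreted protein of the C1q and TNF family, had 0 to 121 CPM (median 7.28) in osteoclast-rich tumors and 0 to 824 CPM (median 102) in osteoclast-poor tumors and -3.75 (SE 0.84, adjusted p = 0.000333). EPHB2, an ephrin receptor, had 0 to 28.9 CPM (median 1.17) in osteoclast-rich tumors and 0 to 86.6 CPM (median 15.6) in osteoclast-poor tumors and -3.06 (SE 0.60, adjusted p = 3.41e-05). MFAP4 and MFAP5, microfibril proteins, had -2.80 and -2.75 with adjusted p of 0.0268 and 0.0327. CHRDL1, a BMP antagonist, had -2.35 (adjusted p = 0.0195), and CCN3, a matricellular protein, -2.22 (adjusted p = 0.0253). MFAP4, MFAP5, CHRDL1 and CCN3 were called in neither trial alone and in neither kind of library alone. None of the 10 decreases was called in the double-bar libraries alone. In limma-voom, C1QTNF3 and THBS3 were not called in COTC021 alone (adjusted p = 0.0702 and 0.0540). EPHB2 and MEGF6 were not called in COTC022 alone (limma-voom adjusted p = 0.0879 and 0.0513). DESeq2 gave no adjusted p for MFAP4. With the osteoblast score in the limma-voom model, MFAP4 and MFAP5 were not called (adjusted p = 0.0573 and 0.0657). MFAP4 was low, with medians of 0.636 CPM in osteoclast-rich and 4.95 CPM in osteoclast-poor tumors. THBS3, a thrombospondin, had -2.22 (adjusted p = 0.00114). ANGPTL2, a secreted angiopoietin-like protein, had 2.32 to 1701 CPM (median 189) in osteoclast-rich tumors and 11.2 to 2338 CPM (median 641) in osteoclast-poor tumors and -2.15 (SE 0.38, adjusted p = 4.19e-06). The groups overlapped for each of these genes.

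Among the genes that met the same criteria, being called included, those most like the score over all 186 dogs, by Spearman correlation and as a description, were ATP6V0D2 (0.963), CD68 (0.963), CD84 (0.959), SIGLEC15 (0.959), TCIRG1 (0.955), MMP9 (0.952), PHETA1 (0.950), HYAL1 (0.943), ATP6V1B2 (0.942) and PTPN22 (0.940). CD84, a receptor of the SLAM family on leukocytes, had 261 to 851 CPM (median 473) in osteoclast-rich tumors and 2.33 to 361 CPM (median 22.1) in osteoclast-poor tumors and 4.34 (SE 0.20, adjusted p = 1.13e-35). PTPN22, a phosphatase of leukocyte signaling, had 48.6 to 216 CPM (median 114) in osteoclast-rich tumors and 0.259 to 99.3 CPM (median 4.56) in osteoclast-poor tumors and 4.58 (SE 0.24, adjusted p = 4.27e-32). PHETA1, an endosomal trafficking protein, had 3.54 (SE 0.15, adjusted p = 3.47e-38), and HYAL1, a lysosomal hyaluronidase, 3.13 (SE 0.14, adjusted p = 1.98e-35), both with no overlap between the groups.

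The 92 dogs between the groups did not enter the comparison and were fitted apart. With the score as a continuous term, 348 genes rose with it (2.59% of those tested) and 119 fell (0.887%). Of the 3204 genes called between osteoclast-rich and osteoclast-poor tumors, 2593 had the same direction here and 331 were also called. The same share over all genes tested was not taken, so the 2593 have no background beside them. Each of the 10 largest increases was called rising, MMP9 by 2.03 per unit of score and ATP6V0D2 by 1.92, and 6 of the 10 largest decreases were called falling, C1QTNF3 with -3.96 and MFAP5 with -5.03 per unit. Of the resorption list, 10 of 15 rose, and of the proton pump list 13 of 19. CD68 rose by 1.44, and CD14 had 0.38 (adjusted p = 0.435). TNFSF11 rose by 0.91 (adjusted p = 0.0332), but TNFRSF11B had 0.27 (adjusted p = 0.843), the opposite sign to its fold change between the groups. ALPL rose by 2.19 (adjusted p = 0.0276). SPP1 had 0.49 (adjusted p = 0.417) and TYROBP 0.26 (adjusted p = 0.681).

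**Figure D5:**
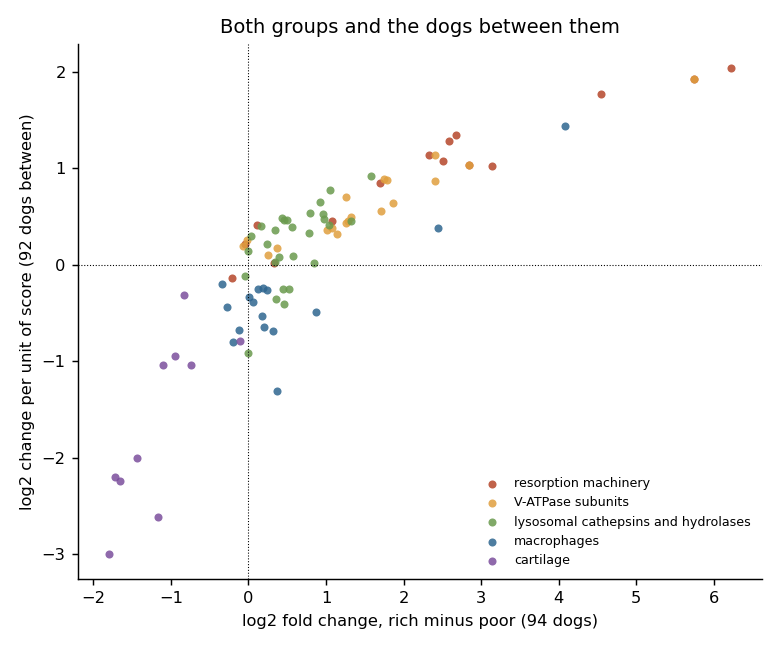
Log2 fold change between osteoclast-rich and osteoclast-poor tumors (x axis, 94 dogs) against the log2 change per unit of score in the 92 dogs between them (y axis), 1 point per tested gene of 5 lists. All 10 cartilage genes lie to the lower left, and 14 of 16 macrophage genes lie below 0 on the y axis, while all 19 proton pump genes lie above it.

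Both trials and both kinds of library were also fitted alone. The median log2 fold change of the resorption list was 2.45 for COTC021 dogs, 2.52 for COTC022 dogs, 2.38 over the double-bar libraries and 2.50 over the rest. For the RANK list these medians were 1.62, 1.58, 1.07 and 1.69, and for the osteocyte list 1.44, 1.45, 1.62 and 1.58. The macrophage list had 0.13 and 0.16 in the trials, but -0.53 in the double-bar libraries and 0.28 in the others. MMP9 had 6.95 for the first trial and 5.31 for the second. Tested as interactions with limma-voom, 0 genes differed in their group effect between the trials after adjustment, with 398 at an unadjusted p under 0.05, and 0 genes between the kinds of library, with 746.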

How the data were processed

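RNA of tumor biopsies from 186 dogs was sequenced as stranded mRNA libraries (TruSeq Stranded mRNA, NovaSeq). The authors trimmed reads with cutadapt, aligned them with STAR 2.7.0f to UU_Cfam_GSD_1.0 and deposited RSEM 1.3.1 expected counts, of which 3.07% were not whole. These were rounded. RSEM shares reads between near-identical genes, so paralogs are uncertain. The 12 columns of values that matched no sample were not used, and survival and cluster assignments were not used here.

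The groups were the highest and lowest 25% of the ACP5 and CTSK score. The members and gene lists were chosen with earlier results of these data known. Of 37952 genes, 13422 passed filterByExpr (minimum count 10 in a proportion of 0.5), and ACP5 and CTSK were left out of the adjustment. Limma 3.58.1 (voom, TMM, trial as covariate, R 4.3.3) was the main test, with edgeR 4.0.16, DESeq2 1.42.0 and other filters, covariates, subsets and scores as alternatives. Named genes were all members of the lists, plus, among called genes with a symbol, a mean of at least 5 CPM and the same direction in both trials and both kinds of library, the 10 with the largest change each way and the 10 with the highest Spearman correlation with the score. The test was checked on simulated counts with the groups fixed in advance. Of 50 genes for each change, 43 were called at 2-fold, 46 at 4-fold, 40 at 0.5-fold and 49 at 0.25-fold. Among the 13422 genes simulated, 12 unchanged ones were wrongly called. Groups sorted by 2 of their own genes and mixed tissue were not simulated, so this check does not cover them. Each dog is 1 biopsy, and p-values measure the spread between dogs. Depth was 6587634 to 27420867 counts per library. A few list members counted in the totals are not reported here by name.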

Additional observations from a re-analysis of the deposited data

How the results depend on the processing

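Over 20 alternatives and the dogs between the groups, 151 named genes were followed, of which 103 were called. A sign change of a difference called in neither fit was not counted as a reversal. The counts of higher and lower genes were 1116 and 748 in COTC021 alone, 886 and 161 in COTC022 alone, and 233 and 31 in the double-bar libraries alone, where fewer samples were fitted. Genes with a fold change above 3 were 19 lower in COTC022, and 156 higher and 7 lower in the double-bar libraries. Genes called lower numbered 2125 in edgeR, 2742 in DESeq2 and 2057 with groups by CTSK alone (1903 higher and 1758 lower by ACP5 alone, 2000 higher by CTSK alone). Lower genes with a fold change above 3 were 111 in edgeR, 93 in DESeq2 (157 higher), 70 by CTSK alone, 79 by ACP5 alone and 97 without the low-count filter. In fits chosen after seeing the data, edgeR called 2174 genes lower, 101 by more than 3-fold, without the T cell-rich osteoclast-poor library, and 1301 higher and 2622 lower, 167 and 126 by more than 3-fold, without the muscle-rich one. The cause was not tested.

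Reversed values were, in the double-bar libraries, CTSB -0.0748 and GIMAP6 -0.13. In edgeR they were GIMAP6 -0.18 and GZMK -3.16, and without the muscle-rich library GIMAP6 -0.23, GZMK -3.19 and TEK -0.0217. TEK had -0.00374 in DESeq2, and FCER1G -0.00918 with groups by ACP5 alone. With the macrophage score as a covariate, built from 16 genes that include C1QA and CD163, the values were C1QA -0.45, CD163 -0.63, FCER1G -0.00483, GIMAP6 -0.0754, GZMK -1.52 and IRF8 -0.45. In the dogs between the groups they were CTSB -0.41, FCER1G -0.23, GIMAP6 -0.22, ITGAM -0.49, LGR4 0.0658, TNFRSF11B 0.27 and UQCRC1 -0.0283. No paired analysis was possible because each dog gave 1 library and belongs to 1 group. The promoter motifs were not searched, since no promoter sequence was at hand. Leaving out single dogs was limited to the libraries that stood apart, in groups of 47.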
